A study of Homo sapiens with 6 samples.

Results

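The apoptosis machinery described here is a set of 35 genes of the BCL2 family, the caspases, the inhibitor of apoptosis proteins (IAPs), the apoptosome and the death receptor pathway, taken by name from the 60651 gene rows of the count files. The genes fall into 5 pro-survival BCL2 family genes, 3 effectors, 8 BH3-only genes, 7 caspases, 3 apoptosome or mitochondrial factors, 3 IAPs and 6 death receptor genes, and 34 of the 35 passed the filter on low counts. RNA was sequenced from MDA-MB-231, an established human triple-negative breast cancer line labelled as wild type. The cells received for 24 h either the solvent DMSO as control or AF-EAE, an extract of the plant Antenoron filiforme made with ethyl acetate, at 75 or 150 µg/ml. Each of the 3 groups had 2 libraries, 6 in all. The titles call the libraries of a group biological replicates, without saying whether separate cultures were used, and the p-values therefore cover only the spread among these libraries, which may be technical.

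Apoptosis is a form of programmed cell death carried out by caspases, proteases that cut a limited set of cell proteins. In the mitochondrial route, BH3-only proteins sense stress and either block the pro-survival BCL2 proteins or activate the effectors BAX and BAK, which open the outer mitochondrial membrane. Cytochrome c then leaves the mitochondria and joins APAF1 in the apoptosome, which activates caspase-9, while IAPs restrain caspases or their upstream complexes. In the other route, death receptors such as those for the ligand TRAIL recruit FADD and caspase-8 at the cell surface. Much of this control acts on proteins, by cleavage, phosphorylation and degradation, and RNA levels do not report on it.

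Counts in genes ran from 15621103 to 17113722 per library, so that 3 counts correspond to 0.175 to 0.192 CPM, the count scaled to a common library size. Levels are CPM scaled by TMM, a factor that aligns the bulk of genes between libraries, and levels of different genes are compared only per kilobase of exon. The counting left aside 10.95% to 11.48% of reads as ambiguous between genes. More than 10% of the exon length overlapped exons of other genes for 8 members, among them FADD (54.9%), BCL2L1 (43%), DIABLO (30.4%), BCL2L2 (24.3%) and BAD (23.7%), and their levels may be lower estimates. For FADD, BCL2L1 and BAD the overlap is with genes on the other strand, where a count that used strand would lose no reads, and whether strand was used is not stated. The keratin genes KRT8 and KRT18 stood at 528 and 185 CPM in DMSO, whereas the epithelial cadherin gene CDH1 was at 0 in both DMSO libraries, although the label reads epithelial cell. The mesenchymal-type genes VIM and AXL were at 836 and 1209 CPM. The summed level of 5 epithelial markers was 743 and 752 CPM in DMSO and 437 and 419 CPM at 150 µg/ml. KRT8 and KRT18 fell, while KRT19 rose at 150 µg/ml (0.28 on the log2 scale, edgeR adjusted p = 0.0146) and EPCAM did not pass (-0.17, edgeR adjusted p = 0.566). All 5 mesenchymal-type markers fell at both doses, and the part of these marker changes in the results was not tested. Of 4 leukocyte markers, PTPRC, CD3E and MS4A1 were at 0 in all 6 libraries, and CD14 had 2 to 7 counts, more in the treated libraries. The summed level of 3 fibroblast markers was 8.51 to 12.1 CPM in DMSO and 12.4 to 15.4 CPM in the treated libraries. Among these, PDGFRB rose at 75 µg/ml (0.80, edgeR adjusted p = 0.0357) and DCN was at 0. Endothelial and hormone receptor markers summed to at most 2.24 and 0.917 CPM. VWF was called higher at 75 µg/ml and ESR1 at both doses. In DMSO they had 5 and 5 counts and 2 and 2 counts, so both passed the filter only through treated libraries. The other endothelial markers did not follow VWF. PECAM1 passed at neither dose, and CDH5, which was not tested, had 6 and 4 counts in DMSO and 0, 0, 1 and 0 in the treated libraries. The part of these changes in the results was likewise not tested. In bulk RNA, fewer cells of a kind and less RNA per cell cannot be told apart.

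The class comparison asked which parts of the machinery differed from DMSO at each dose. At 75 µg/ml, 12 members rose and 10 fell by edgeR's quasi-likelihood test, with p-values adjusted over 15589 genes by Benjamini-Hochberg and a threshold of 0.05. Among all genes tested, 19.2% rose and 19.4% fell. At 150 µg/ml, 17 members rose and 10 fell, against 25.8% and 25.7% of all genes. As shares of the 34 tested members, the rises were 35.3% and 50% and the falls 29.4% at each dose, so that the share of falls at the higher dose was near that of all genes. In either direction 22 members were called at 75 µg/ml and 27 at 150 µg/ml, against 38.6% and 51.5% of all genes. The libraries did not overlap with DMSO for 29 members at 75 µg/ml and 30 at 150 µg/ml, and for 68.5% and 74.8% of all genes. With a change of at least 0.5 on the log2 scale, 7 members rose and 4 fell at 75 µg/ml (10.9% and 5.81% of all genes), and 10 rose and 8 fell at 150 µg/ml (16.3% and 12.6%). Of the members, 11 rose at both doses and 9 fell at both. The rises count BCL2A1 at both doses and BIK at 150 µg/ml, and each passed the filter only through treated libraries. The median log2 fold change of the 34 members was 0.10 at 75 µg/ml and 0.33 at 150 µg/ml, beside 0.01 and 0.03 for all genes, and the median absolute value was 0.39 and 0.57, beside 0.28 and 0.38. With total counts in place of TMM, 18 members rose and 7 fell at 75 µg/ml, with an all-gene median of 0.14. The 6 added rises were BAK1, BAD, CASP6, XIAP, CFLAR and RIPK1. At 150 µg/ml the all-gene median was 0.22, and 19 members rose and 8 fell. Both doses are set against the same DMSO libraries.

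**Figure D1:**
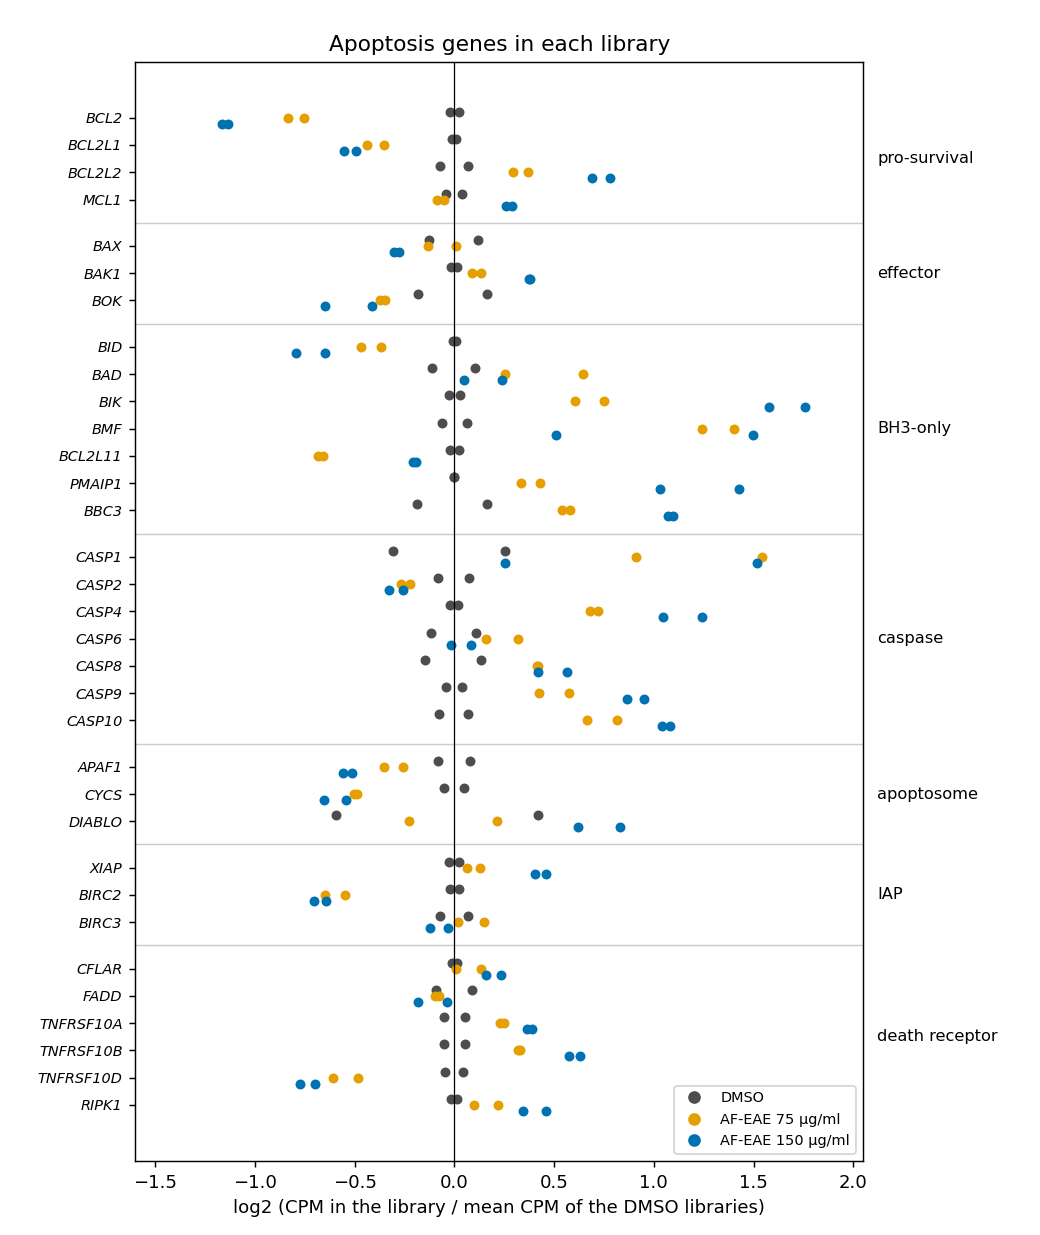
Each point is 1 library, placed on a log2 axis by its CPM relative to the mean of the 2 DMSO libraries, for 33 members grouped by class. BCL2A1 and HRK, with 0 or 1 count in the DMSO libraries, are left out. BCL2 and TNFRSF10D moved left with dose, while CASP4, PMAIP1 and BIK moved right.

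No class had all its members called in 1 direction. At 150 µg/ml, 3 of 5 pro-survival genes rose and 2 fell, 1 of 3 effectors rose and 2 fell, and 4 of the 7 tested BH3-only genes rose and 1 fell. The pro-survival rises include BCL2A1, which passed the filter only through treated libraries, and without it 2 of 4 rose and 2 fell. The BH3-only rises include BIK, whose 10 counts in each DMSO library lay under the filter cutoff. BIK thus also passed only through treated libraries. Of the 7 caspase genes, 4 rose and 1 fell. The apoptosome class had 2 falls and no rise among 3 genes, the IAPs 1 rise and 1 fall among 3, and the death receptor class 4 rises and 1 fall among 6. The median log2 fold change was 1.08 for the BH3-only genes and 0.91 for the caspases, 0.29 for the death receptor class and 0.27 for the pro-survival genes, and it was -0.07 for the IAPs, -0.29 for the effectors and -0.54 for the apoptosome class. The pro-survival median counts BCL2A1, and the other 4 genes of that class were at -1.15, -0.52, 0.27 and 0.74. The BH3-only median counts BIK, and the other tested genes of that class were at -0.72, -0.20, 0.15, 1.08, 1.08 and 1.24. Whether the BH3-only genes stood above the caspases therefore depends on BIK. Caspase and BH3-only genes thus stood above the other classes, on medians over few genes that were not tested against each other. At 75 µg/ml the order was similar at the top, with medians of 0.50 for caspases and 0.46 for BH3-only genes.

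**Figure D2:**
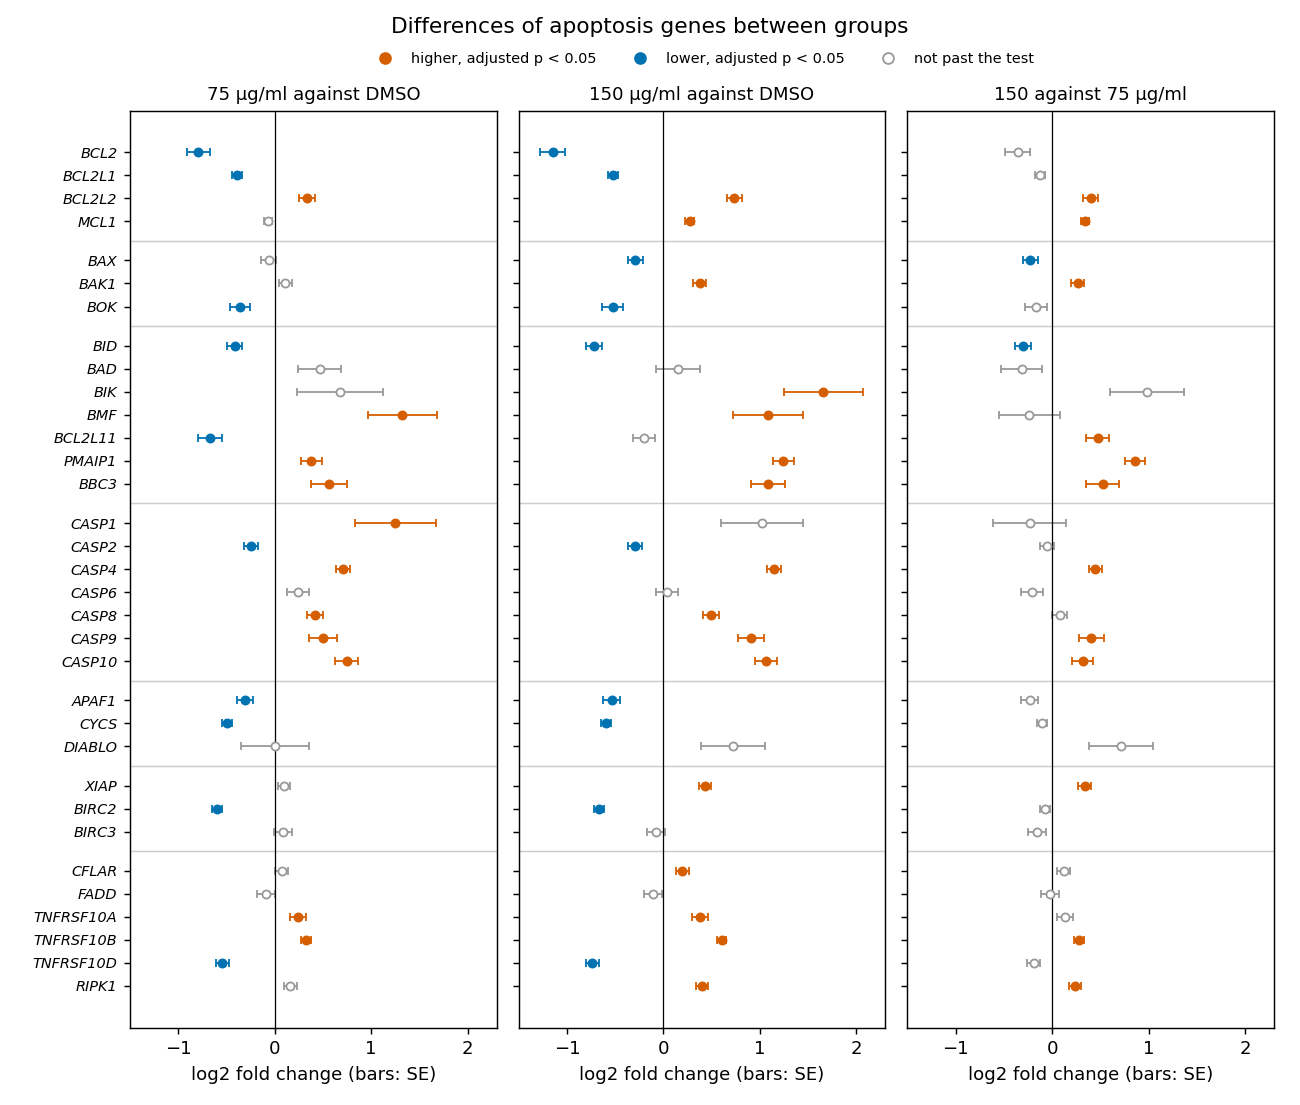
Log2 fold changes with their standard errors for 33 members in the 3 comparisons, in the same order and classes as the plot of single libraries. The rise of BCL2A1 is not drawn. Filled points passed the test (orange higher, blue lower) and open points did not. The right panel, for the step between doses, holds 12 rises and 2 falls, with PMAIP1 the largest called rise at 0.86.

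Among the pro-survival genes, BCL2 and BCL2L1 fell at both doses while BCL2L2 rose. BCL2 encodes the founding pro-survival protein of the family. Its level was 20.5 and 19.8 CPM in DMSO, 11.3 and 12 at 75 µg/ml, then 9.01 and 9.17 at 150 µg/ml. The 3 groups did not overlap, and the log2 fold change was -0.79 (SE 0.121, edgeR adjusted p = 5.56e-05) at 75 µg/ml and -1.15 (SE 0.125, edgeR adjusted p = 5.67e-07) at 150 µg/ml. BCL2L1, which encodes BCL-XL, stood at 273 and 277 CPM in DMSO, 216 and 203 at 75 µg/ml, then 188 and 196 at 150 µg/ml. It therefore lay lower in every treated library, with log2 fold changes of -0.39 (SE 0.0499) and -0.52 (SE 0.05, edgeR adjusted p = 1.28e-07). BCL2L2, which encodes the related protein BCL-W, was at 36.2 and 39.9 CPM in DMSO, 46.7 and 49.1 at 75 µg/ml, then 61.3 and 65.2 at 150 µg/ml. It rose in steps, by 0.33 (SE 0.0805) and then to 0.74 (SE 0.0788, edgeR adjusted p = 4.87e-07) on the log2 scale.

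MCL1, a pro-survival gene whose protein turns over quickly, was the most abundant member per kilobase of exon, at 131 CPM per kb in DMSO. It was at 589 and 556 CPM in DMSO, 540 and 552 at 75 µg/ml, then 700 and 685 at 150 µg/ml. The lower dose did not pass the test (log2 fold change -0.07, edgeR adjusted p = 0.247), and at the higher dose MCL1 rose by 0.27 (SE 0.0447, edgeR adjusted p = 5.99e-05). BCL2A1, a pro-survival gene known as an NF-kB target, had 0 counts in both DMSO libraries, 6 and 11 counts at 75 µg/ml and 3 and 11 counts at 150 µg/ml. It passed the filter only through 1 library of each dose. Against a floor of 3 counts over both DMSO libraries, its pooled treated counts gave 5.35-fold at 75 µg/ml and 4.3-fold at 150 µg/ml. These values leave out the counting error and spread of the treated libraries and are not lower bounds for BCL2A1. Its call at 150 µg/ml was lost without DMSO replicate 1 (edgeR adjusted p = 0.0533) or without 150 µg/ml replicate 2 (edgeR adjusted p = 0.113). With these folds in place of the fitted values BCL2A1 was still the highest of its class, so the class median of -0.07 and 0.27 could not move.

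Shares within a library do not depend on the scaling. MCL1 made up 59.2% and 57.3% of the summed pro-survival CPM per kb in DMSO, 61.4% and 62.9% at 75 µg/ml, then 68.9% and 67.4% at 150 µg/ml. The BCL2L1 share went from 36.2% and 37.6% through 32.4% and 30.5% to 24.4% and 25.4%. MCL1 per kb was thus 1.64 and 1.52 times BCL2L1 in DMSO and 2.83 and 2.66 times at 150 µg/ml. The summed level of the 5 genes moved little, from 228 and 222 CPM per kb in DMSO to 201 and 201 at 75 µg/ml, then 232 and 233 at 150 µg/ml.

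**Figure D3:**
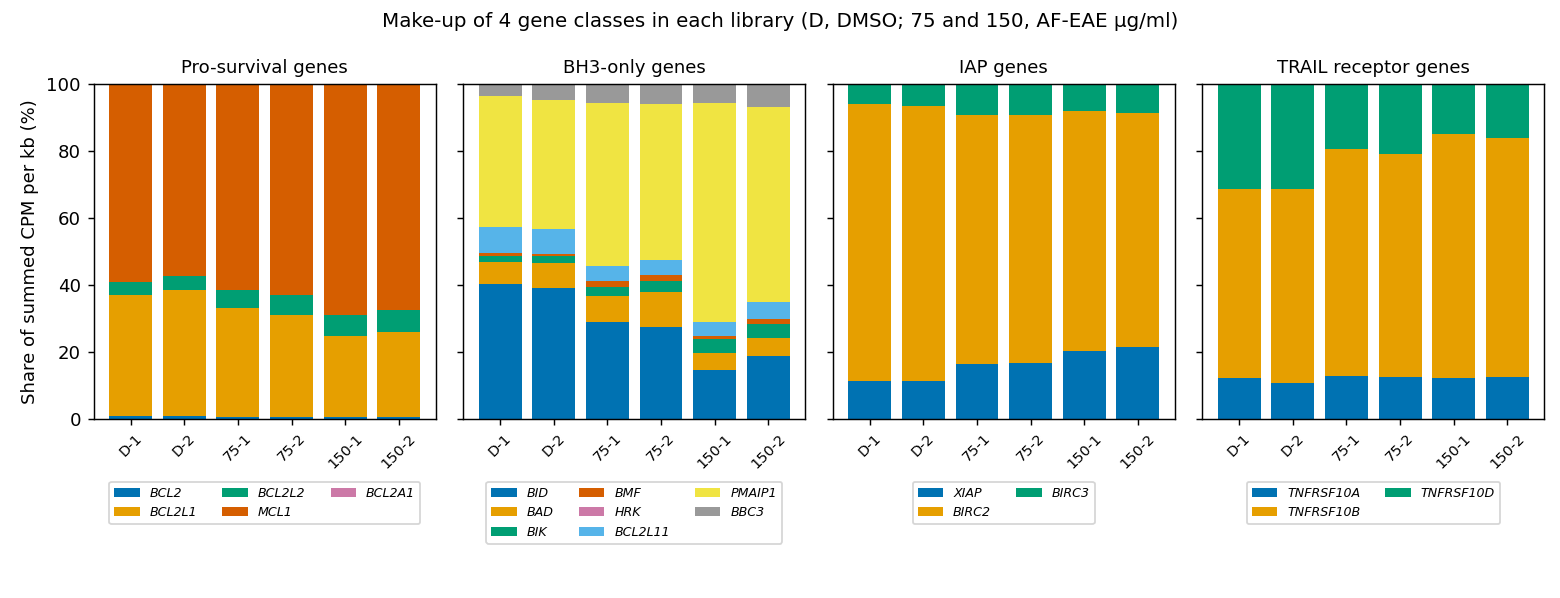
Stacked bars give, for each of the 6 libraries, the share in percent of each gene in the summed CPM per kb of its class. The MCL1 share was 57.3% to 59.2% in DMSO and 67.4% to 68.9% at 150 µg/ml, the PMAIP1 share went from 38.4% to 39% up to 58.4% to 65.6%, and the TNFRSF10D share went from 31.2% to 31.6% down to 15.1% to 16.2%.

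The effector genes moved in different directions. BAX and BAK1 encode the proteins that form pores in the outer mitochondrial membrane. BAK1 was at 53 and 54.1 CPM in DMSO, 58.7 and 56.9 at 75 µg/ml, then 69.3 and 69.7 at 150 µg/ml, and it passed the test at the higher dose (log2 fold change 0.38, SE 0.0675, edgeR adjusted p = 0.000153). BAX was at 105 and 88.6 CPM in DMSO, 97.4 and 88.4 at 75 µg/ml, then 78.6 and 80.0 at 150 µg/ml. Its libraries overlapped between DMSO and 75 µg/ml, and it fell at 150 µg/ml by 0.29 (SE 0.0764, edgeR adjusted p = 0.00407). That call was lost under total counts (-0.10, edgeR adjusted p = 0.264) and without DMSO replicate 1 (-0.16, edgeR adjusted p = 0.0997). Within libraries, BAX per kb was 1.7 and 1.4 times BAK1 in DMSO and 0.971 and 0.981 times at 150 µg/ml. BOK, a less studied relative of the 2 genes, was at 50.0 and 39.4 CPM in DMSO, 35.1 and 34.5 at 75 µg/ml, then 33.6 and 28.6 at 150 µg/ml. It fell by 0.36 (SE 0.108) and 0.53 (SE 0.109, edgeR adjusted p = 0.000577). Its 2 DMSO libraries differed about as much as the group means, and the call at 75 µg/ml was lost without DMSO replicate 1 (-0.18, edgeR adjusted p = 0.268), without 75 µg/ml replicate 2 (edgeR adjusted p = 0.0506) and under total counts (edgeR adjusted p = 0.0933).

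At 150 µg/ml the BH3-only gene PMAIP1 rose most among the members other than the low-count BIK and BCL2A1, followed by the caspase gene CASP4. At 75 µg/ml CASP10 and CASP4 rose by more than PMAIP1 and BBC3. PMAIP1 encodes NOXA, a BH3-only protein that binds MCL1, and BBC3 encodes PUMA, which binds all the main pro-survival proteins. Promoters of 4 members that changed are shown as examples of windows that hold a searched motif, and they were chosen after the changes and the matches were seen. The short CRE core TGACGT was added to the search after the PMAIP1 window was found to lack the full CRE. The windows are from RefSeq on GRCh38.p14, hold 300 bases around a transcript start and are written 5′ to 3′ on the strand of the gene. PMAIP1 is on the plus strand at chr18:59899746-59900045 and BBC3 on the minus strand at chr19:47232618-47232917. Capitals mark the CRE core TGACGT (on either strand) in PMAIP1, and the E-box CACGTG and the AP-1 letters TGANTCA in BBC3.
PMAIP1: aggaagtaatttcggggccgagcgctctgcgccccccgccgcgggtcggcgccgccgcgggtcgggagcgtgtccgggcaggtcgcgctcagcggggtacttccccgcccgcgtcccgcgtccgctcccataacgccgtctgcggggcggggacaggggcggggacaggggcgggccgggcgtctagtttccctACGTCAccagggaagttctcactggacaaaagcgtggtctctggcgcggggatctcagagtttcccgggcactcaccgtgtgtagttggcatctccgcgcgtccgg
BBC3: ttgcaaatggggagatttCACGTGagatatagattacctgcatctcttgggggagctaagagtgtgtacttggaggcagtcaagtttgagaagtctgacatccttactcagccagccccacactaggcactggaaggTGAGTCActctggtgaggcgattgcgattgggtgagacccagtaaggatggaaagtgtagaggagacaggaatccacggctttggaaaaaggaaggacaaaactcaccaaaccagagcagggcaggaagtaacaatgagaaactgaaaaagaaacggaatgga

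PMAIP1 was at 29.6 and 29.6 CPM in DMSO, 39.8 and 37.2 at 75 µg/ml, then 79.5 and 60.4 at 150 µg/ml. All treated libraries lay above DMSO, and the 2 libraries of the higher dose were further apart than those of the other groups. The log2 fold change was 0.38 (SE 0.112, edgeR adjusted p = 0.0122) at 75 µg/ml and 1.24 (SE 0.107, edgeR adjusted p = 3.29e-08) at 150 µg/ml, a 2.36-fold level. BBC3 was at 4.10 and 5.24 CPM in DMSO, 6.78 and 6.97 at 75 µg/ml, then 9.79 and 9.98 at 150 µg/ml. The groups did not overlap, with log2 fold changes of 0.56 (SE 0.185, edgeR adjusted p = 0.0235) and 1.08 (SE 0.178, edgeR adjusted p = 6.54e-05). At 75 µg/ml the PMAIP1 call was lost without 75 µg/ml replicate 1 (edgeR adjusted p = 0.0668). The BBC3 call there was lost without DMSO replicate 1 (0.39, edgeR adjusted p = 0.199), without 75 µg/ml replicate 1 or 2 (edgeR adjusted p = 0.0666 and 0.0849) and with DESeq2 (adjusted p = 0.102).

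BIK and BMF rose from low levels, and BIK passed the filter only through treated libraries. BIK encodes a BH3-only protein of the endoplasmic reticulum. It had 10 counts in each DMSO library, 16 and 18 at 75 µg/ml, then 36 and 33 at 150 µg/ml, and its log2 fold change was 1.66 (SE 0.411, edgeR adjusted p = 0.00262) at the higher dose, while 0.67 at the lower dose did not pass (edgeR adjusted p = 0.254). BMF encodes a BH3-only protein held by the cytoskeleton. It had 20 and 21 counts in DMSO, 51 and 58 at 75 µg/ml, then 31 and 64 at 150 µg/ml, so that the 2 libraries of the higher dose differed about as much as the groups. Its log2 fold change was 1.32 (SE 0.356, edgeR adjusted p = 0.00694) and 1.08 (SE 0.361, edgeR adjusted p = 0.0181). The second call was lost without 150 µg/ml replicate 2 (0.50, edgeR adjusted p = 0.348), without DMSO replicate 1 (edgeR adjusted p = 0.0673) and with DESeq2 (adjusted p = 0.0527).

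BID and BCL2L11 went the other way. BID, whose protein is cut by caspase-8 and carries the death receptor signal to mitochondria, was at 60.4 and 59.8 CPM in DMSO, 46.6 and 43.5 at 75 µg/ml, then 34.7 and 38.3 at 150 µg/ml. It fell at both doses, by 0.42 (SE 0.0779) and 0.72 (SE 0.0793, edgeR adjusted p = 7.03e-07) on the log2 scale, with no overlap between groups. BCL2L11, which encodes BIM, was at 17.7 and 17.1 CPM in DMSO, 11 and 10.8 at 75 µg/ml, then 15.1 and 15.2 at 150 µg/ml. The lower dose gave the lower level, with a log2 fold change of -0.67 (SE 0.121, edgeR adjusted p = 0.00029), whereas the higher dose did not differ from DMSO past the test (-0.20, edgeR adjusted p = 0.168). The remaining BH3-only genes were BAD, whose protein is regulated by phosphorylation, and HRK, a gene studied mainly in neurons. BAD had log2 fold changes of 0.46 and 0.15 that did not pass the test (edgeR adjusted p = 0.111 and 0.616). HRK had 1 and 0 counts in DMSO, 0 and 4 at 75 µg/ml, then 2 and 1 at 150 µg/ml, and was not tested.

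The make-up of the BH3-only class differed most between PMAIP1 and BID. The 2 genes had nearly equal levels per kb in DMSO, with a PMAIP1 to BID ratio of 0.974 and 0.985. The ratio was 1.7 and 1.7 at 75 µg/ml, then 4.56 and 3.14 at 150 µg/ml. PMAIP1 relative to MCL1, per kb, was 0.0982 and 0.104 in DMSO, 0.144 and 0.132 at 75 µg/ml, then 0.222 and 0.172 at 150 µg/ml, so that the RNA of MCL1 remained the larger in all 6 libraries.

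Of the caspases, the initiator genes CASP8, CASP9 and CASP10 and the inflammatory caspase gene CASP4 rose at both doses. CASP4 encodes the human sensor of cytosolic lipopolysaccharide that triggers pyroptosis, and it had the largest change of the class at 150 µg/ml. Its promoter, another of the 4 examples, is on the minus strand at chr11:104968525-104968824, with capitals for the antioxidant response element letters TGACNNNGC.
CASP4: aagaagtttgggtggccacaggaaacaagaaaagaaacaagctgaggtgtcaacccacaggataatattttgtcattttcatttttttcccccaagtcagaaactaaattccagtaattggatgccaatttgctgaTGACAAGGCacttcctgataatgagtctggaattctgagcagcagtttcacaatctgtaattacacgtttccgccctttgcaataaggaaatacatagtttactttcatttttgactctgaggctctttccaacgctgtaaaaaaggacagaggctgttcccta

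CASP4 was at 53 and 54.5 CPM in DMSO, 86.2 and 88.7 at 75 µg/ml, then 127 and 111 at 150 µg/ml. The groups were well apart, with log2 fold changes of 0.70 (SE 0.0724, edgeR adjusted p = 7.37e-07) and 1.15 (SE 0.0711, edgeR adjusted p = 4.53e-10). CASP10, an initiator caspase of the death receptor complex, was at 11.7 and 12.9 CPM in DMSO, 19.5 and 21.6 at 75 µg/ml, then 25.3 and 26.0 at 150 µg/ml. It rose by 0.74 (SE 0.118) and 1.06 (SE 0.115, edgeR adjusted p = 5.78e-07), to 2.09-fold. CASP9, the caspase of the apoptosome, was at 7.75 and 8.18 CPM in DMSO, 11.9 and 10.7 at 75 µg/ml, then 14.5 and 15.4 at 150 µg/ml. Each treated library again exceeded DMSO, and the log2 fold changes were 0.50 (SE 0.142, edgeR adjusted p = 0.00993) and 0.91 (SE 0.138, edgeR adjusted p = 2.95e-05). The CASP9 call at 75 µg/ml was lost without DMSO replicate 1 (edgeR adjusted p = 0.0574), without 75 µg/ml replicate 1 (edgeR adjusted p = 0.0909) and with DESeq2 (adjusted p = 0.0558).

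CASP8, the main initiator caspase of death receptors, was at 53.4 and 64.7 CPM in DMSO, 78.8 and 79.0 at 75 µg/ml, then 79.1 and 87.5 at 150 µg/ml. It rose by 0.42 (SE 0.0827) and 0.50 (SE 0.0822, edgeR adjusted p = 6.88e-05), with no further rise past the test between the doses. CASP2, an initiator caspase of its own complex, fell by 0.24 (SE 0.0731) and 0.29 (SE 0.0732, edgeR adjusted p = 0.00276). Under total counts CASP2 passed at neither dose (edgeR adjusted p = 0.221 and 0.235), and at 75 µg/ml the call was lost without DMSO replicate 1 (edgeR adjusted p = 0.164) or 75 µg/ml replicate 2 (edgeR adjusted p = 0.0913). CASP6, an executioner caspase gene, passed at neither dose, with log2 fold changes of 0.24 and 0.04, although 0.37 under total counts passed at 75 µg/ml (edgeR adjusted p = 0.0149). CASP1, which processes interleukin-1 precursors, had 23 and 15 counts in DMSO, 58 and 38 at 75 µg/ml, then 24 and 60 at 150 µg/ml. The 2 libraries of the higher dose differed by more than the groups, and the log2 fold change passed at 75 µg/ml (1.25, SE 0.419, edgeR adjusted p = 0.0251) and not at 150 µg/ml (1.02, SE 0.424, edgeR adjusted p = 0.0544). The first of these calls was lost without DMSO replicate 2 (edgeR adjusted p = 0.119) or 75 µg/ml replicate 1 (edgeR adjusted p = 0.19) and with DESeq2 (adjusted p = 0.0559). The second value passed under total counts (edgeR adjusted p = 0.0223), with no filter (edgeR adjusted p = 0.0143), without either 75 µg/ml library (edgeR adjusted p = 0.0438 and 0.0401), without 150 µg/ml replicate 1 (1.51, edgeR adjusted p = 0.00928) and without DMSO replicate 1 (edgeR adjusted p = 0.0485).

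CASP8 and CASP10 lie beside CFLAR on chromosome 2 (GRCh38, GENCODE 29), with CFLAR from 201116104 to 201176687, CASP10 from 201182881 to 201229406 and CASP8 from 201233443 to 201287711. CFLAR encodes c-FLIP, a relative of both caspases that lacks protease activity and restrains caspase-8. The log2 fold changes at 150 µg/ml differed along the cluster, with 0.20 for CFLAR, 1.06 for CASP10 and 0.50 for CASP8. CFLAR was at 64.7 and 65.9 CPM in DMSO and 76.7 and 73.0 at 150 µg/ml (SE 0.0683, edgeR adjusted p = 0.0225). Its call was lost without either DMSO library (edgeR adjusted p = 0.0895 and 0.0525), without 150 µg/ml replicate 1 (edgeR adjusted p = 0.15) and with DESeq2 (adjusted p = 0.0984).

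The apoptosome genes CYCS and APAF1 fell. CYCS encodes cytochrome c, which also carries electrons in the respiratory chain, and has processed copies in the genome, so that its level is uncertain to that extent. It was at 379 and 354 CPM in DMSO, 261 and 259 at 75 µg/ml, then 251 and 233 at 150 µg/ml. Every treated library was below DMSO, with log2 fold changes of -0.49 (SE 0.0516, edgeR adjusted p = 8.62e-07) and -0.60 (SE 0.0517, edgeR adjusted p = 3.52e-08). APAF1, the scaffold of the apoptosome, was at 45.2 and 50.4 CPM in DMSO, 40.0 and 37.4 at 75 µg/ml, then 33.5 and 32.5 at 150 µg/ml. It fell by 0.30 (SE 0.0843) and 0.54 (SE 0.0854, edgeR adjusted p = 4.67e-05). At 75 µg/ml the APAF1 call was lost under total counts (edgeR adjusted p = 0.106), without DMSO replicate 2 (edgeR adjusted p = 0.0979) and without 75 µg/ml replicate 2 (edgeR adjusted p = 0.0845). APAF1 and CASP9, partners in 1 complex, thus went in opposite directions at both doses. DIABLO, whose protein SMAC relieves caspases of IAPs, had only 21 to 61 counts per library. A second gene row of the same symbol overlaps its exons on the same strand, so that reads shared by both may have been counted for neither and the count may not reflect its level. Its log2 fold change of 0.72 at 150 µg/ml did not pass (edgeR adjusted p = 0.0813) but did so without DMSO replicate 1 (1.31, edgeR adjusted p = 0.0111) and under total counts (edgeR adjusted p = 0.0279).

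Among the IAP genes, BIRC2 fell, XIAP rose at the higher dose and BIRC3 passed at neither dose. BIRC2 encodes cIAP1, a ubiquitin ligase of TNF receptor signalling. Its promoter, the last of the 4 examples, is on the plus strand at chr11:102346964-102347263, with capitals for the full CRE TGACGTCA.
BIRC2: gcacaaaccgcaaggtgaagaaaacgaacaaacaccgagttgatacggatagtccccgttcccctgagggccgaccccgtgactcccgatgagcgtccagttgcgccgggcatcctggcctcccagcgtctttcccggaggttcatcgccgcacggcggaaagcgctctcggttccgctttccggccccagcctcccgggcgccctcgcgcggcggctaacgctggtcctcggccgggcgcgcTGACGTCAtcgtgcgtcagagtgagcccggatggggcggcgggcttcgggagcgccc

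BIRC2 was at 253 and 245 CPM in DMSO, 170 and 159 at 75 µg/ml, then 160 and 153 at 150 µg/ml. Both doses lay far below DMSO and overlapped each other, with log2 fold changes of -0.60 (SE 0.0523, edgeR adjusted p = 1.04e-07) and -0.67 (SE 0.0524, edgeR adjusted p = 9.13e-09). XIAP, the IAP that inhibits caspases directly, was at 69 and 66.6 CPM in DMSO, 74.1 and 70.9 at 75 µg/ml, then 89.9 and 93.2 at 150 µg/ml. It passed at the higher dose alone (0.43, SE 0.0632, edgeR adjusted p = 1.86e-05), and under total counts also at 75 µg/ml (0.22, edgeR adjusted p = 0.00996). BIRC3, which encodes cIAP2 and lies next to BIRC2 on chromosome 11, had log2 fold changes of 0.09 and -0.07 (edgeR adjusted p = 0.504 and 0.545). In each library BIRC2 was the most abundant IAP per kb, at 7.3 and 7.32 times XIAP in DMSO, 4.57 and 4.46 times at 75 µg/ml and 3.54 and 3.27 times at 150 µg/ml.

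The 3 TRAIL receptor genes among the members did not move in 1 direction. TNFRSF10A and TNFRSF10B encode the TRAIL receptors DR4 and DR5, which signal death, and TNFRSF10D encodes DcR2, a decoy with a truncated death domain. TNFRSF10B was at 269 and 290 CPM in DMSO, 350 and 349 at 75 µg/ml, then 432 and 416 at 150 µg/ml. It rose with dose and without overlap, by 0.32 (SE 0.0487, edgeR adjusted p = 4.8e-05) and 0.60 (SE 0.0485, edgeR adjusted p = 1.39e-08). TNFRSF10D was at 102 and 109 CPM in DMSO, 68.9 and 75.3 at 75 µg/ml, then 61.5 and 64.8 at 150 µg/ml. The decoy gene therefore fell, by 0.54 (SE 0.0667, edgeR adjusted p = 5.4e-06) and 0.74 (SE 0.0674, edgeR adjusted p = 6.99e-08). Per kb, TNFRSF10B was 1.81 and 1.83 times TNFRSF10D in DMSO, 3.49 and 3.17 times at 75 µg/ml and 4.82 and 4.41 times at 150 µg/ml, and these ratios do not depend on the scaling. Other receptor genes, chosen after their values were seen, went both ways. The death receptor gene TNFRSF21 fell by 0.55 and 0.93 on the log2 scale (edgeR adjusted p = 1.18e-05 and 1.17e-08). TNFRSF1A fell at 150 µg/ml (-0.15, edgeR adjusted p = 0.0413) and FAS passed at neither dose. TNFRSF25 rose by 1.11 and 1.10 (edgeR adjusted p = 0.00266 and 0.00183). The decoy gene TNFRSF11B fell at 150 µg/ml (-1.38, edgeR adjusted p = 0.00245). The decoy gene TNFRSF10C passed at neither dose (edgeR adjusted p = 0.999 and 0.316), at only 12 to 20 counts a library. The TRAIL receptor genes are related in sequence, and the sources used here do not say how reads aligned to several places were treated.

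TNFRSF10A was at 33.0 and 30.6 CPM in DMSO, 37.8 and 37.3 at 75 µg/ml, then 41.0 and 41.6 at 150 µg/ml. It rose by 0.24 (SE 0.0842, edgeR adjusted p = 0.032) and 0.38 (SE 0.0834, edgeR adjusted p = 0.00105). The call at 75 µg/ml was lost without DMSO replicate 2 (edgeR adjusted p = 0.194), without 75 µg/ml replicate 1 or 2 (edgeR adjusted p = 0.152 and 0.106), with no filter (edgeR adjusted p = 0.0738) and with DESeq2 (adjusted p = 0.133). RIPK1, a kinase that links death receptors to NF-kB or to cell death, was at 76.9 and 78.6 CPM in DMSO, 83.3 and 90.6 at 75 µg/ml, then 107 and 98.6 at 150 µg/ml. It passed at 150 µg/ml (0.40, SE 0.0652, edgeR adjusted p = 5.78e-05) and not at 75 µg/ml (0.16, edgeR adjusted p = 0.0627). At 75 µg/ml RIPK1 did pass under total counts (0.29, edgeR adjusted p = 0.00211) and with the filter of 5 CPM (edgeR adjusted p = 0.0306). FADD, the adaptor between receptors and caspase-8, did not pass at either dose, with log2 fold changes of -0.09 and -0.11.

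**Figure D4:**
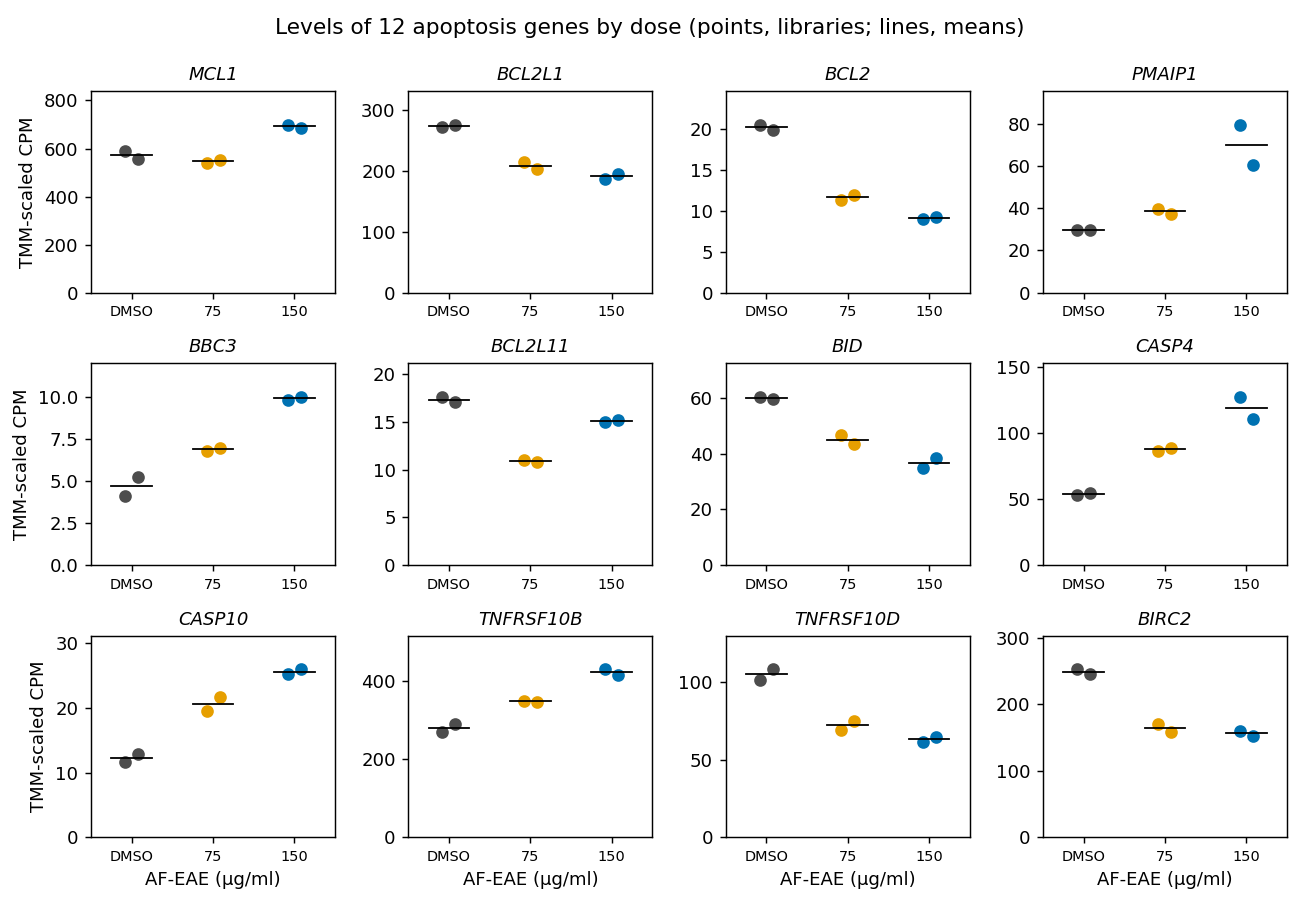
TMM-scaled CPM of 12 members in the 6 libraries by dose, with each axis starting at 0 and a line at the mean of each group. BCL2L11 was lowest at 75 µg/ml, PMAIP1 had its widest spread at 150 µg/ml (79.5 and 60.4 CPM), and BIRC2 was at a like level at both doses.

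The step from 75 to 150 µg/ml was tested directly. Relative to the lower dose, 12 members were higher and 2 lower at 150 µg/ml, while 9.51% of all genes tested were higher and 12.5% lower. As shares of the 34 tested members these were 35.3% and 5.88%, and in either direction 14 members were called, against 22% of all genes. With a change of at least 0.5 on the log2 scale, 2 members were higher and 0 lower (2.59% and 3.36% of all genes). The libraries of the doses did not overlap for 28 members and 60.6% of all genes. The members that rose at this step were BCL2L2, MCL1, BAK1, BCL2L11, PMAIP1, BBC3, CASP4, CASP9, CASP10, XIAP, TNFRSF10B and RIPK1, and those that fell were BAX and BID. PMAIP1 had the largest of these log2 fold changes, 0.86 (SE 0.103, edgeR adjusted p = 1.45e-05), followed by BBC3 (0.52, SE 0.169, edgeR adjusted p = 0.034). BCL2L11 rose by 0.47 (SE 0.122, edgeR adjusted p = 0.0104), after its fall at the lower dose. MCL1 rose by 0.34 (SE 0.0447, edgeR adjusted p = 3.25e-05) and XIAP by 0.34 (SE 0.0626, edgeR adjusted p = 0.000936). Pro-survival MCL1, BCL2L2 and XIAP and the pro-apoptotic PMAIP1, BBC3 and BAK1 were thus higher together at the higher dose. Of the 10 members that fell at 75 µg/ml, 8 did not differ past the test between the doses and also fell at 150 µg/ml, namely BCL2, BCL2L1, BOK, CASP2, APAF1, CYCS, BIRC2 and TNFRSF10D.

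Several of the step calls were lost when 1 of the 4 treated libraries was left out. With any 1 of these left out, fewer of all genes were called too, in both directions. Without 150 µg/ml replicate 1, 6 members were higher and 0 lower, and without 75 µg/ml replicate 1, 7 were higher and 0 lower. Without 75 µg/ml replicate 2, 7 were higher and 2 lower, and without 150 µg/ml replicate 2, 9 were higher and 1 lower. With no filter, CASP9 and CASP10 lost their calls (edgeR adjusted p = 0.0662 and 0.0734). BBC3, CASP9 and CASP10 each lost the call without any 1 of the 4 treated libraries and with DESeq2, with adjusted p of 0.101 to 0.148, 0.0679 to 0.212 and 0.0637 to 0.282. BCL2L11 was at an edgeR adjusted p of 0.05 to 0.0594 without 75 µg/ml replicate 1 or 2 or 150 µg/ml replicate 1, and at 0.0508 with DESeq2. BAX lost its call without 75 µg/ml replicate 1 or either 150 µg/ml library (edgeR adjusted p = 0.135 to 0.333), under total counts (edgeR adjusted p = 0.128) and with DESeq2 (adjusted p = 0.0746). BID, BAK1 and RIPK1 each lost theirs without 150 µg/ml replicate 1 and without 1 library of 75 µg/ml, replicate 2 for BAK1 and replicate 1 for BID and RIPK1 (edgeR adjusted p = 0.0507 to 0.16). TNFRSF10D, at -0.19 and an edgeR adjusted p of 0.0549, passed without either DMSO library (edgeR adjusted p = 0.0413 and 0.0436).

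Of the motifs counted in the promoter windows on both strands, 9 are given here, as a description. A window was at hand for 27 of the 35 members, with 49 windows in all, and not for BCL2L2, MCL1, BIK, CASP1, CASP10, TNFRSF10A, TNFRSF10B and TNFRSF10D. Windows of the same gene can overlap and each was counted, for members and all genes alike, so that the same site can count more than once. This held for the CRE core in BAD and BIRC2, the full CRE in BIRC2 and the antioxidant response element letters in BAD and XIAP. It also held for the E-box and the NRF1 consensus in BID. The CRE core TGACGT, also contained in the full CRE, was in windows of BAD, PMAIP1, CYCS, XIAP and BIRC2, or 14.3% of the members' windows against 7.98% of 35116 windows of all genes. Among these 5 genes, PMAIP1 and XIAP rose at 150 µg/ml, CYCS and BIRC2 fell and BAD did not pass. The full CRE TGACGTCA was in BIRC2 alone (1.85% of all windows), and the C/EBP-ATF letters TGATGNAA in BCL2A1 and HRK (3.62% of all windows). The antioxidant response element letters TGACNNNGC were in 8 members, CASP4 and XIAP among them (20.4% of member windows and 13.3% of all). AP-1 letters TGANTCA were in BBC3, CASP8, CFLAR and FADD (10.2% and 7.71%), and the E-box CACGTG in BAX, BID, BBC3 and DIABLO (10.2% and 7.26%), with 4 copies in BAX. The NF-kB consensus was in 5 members (10.2% and 11.3%), the NRF1 consensus in BID, CASP2 and FADD (8.16% and 8.32%) and the E2F letters TTTNNCGC in BCL2L1 (2.04% and 6.89%). Members that rose and members that fell both held several of these motifs.

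Genes around the members were read from 5 further lists. At 150 µg/ml, 25.8% of all genes tested rose and 25.7% fell, with a median log2 fold change of 0.03. The lists were not tested against them. Of 18 tested genes of the wider BCL2 family and mitochondrial membranes, 3 rose and 8 fell at 150 µg/ml (median log2 fold change -0.02). They included the outer membrane channel gene VDAC1 (-0.88), the BCL2-like gene BCL2L13 (0.82), the co-chaperone gene BAG1 (-0.63) and BNIP2 (0.45). Of 11 other caspase, substrate and inflammasome genes, 3 rose and 2 fell (median 0.10). The caspase substrate gene PARP1 was at -0.87 and the inflammasome sensor gene NLRP1 at 0.89. Of 8 other IAP and intermembrane genes, 1 rose and 3 fell (median -0.15), with BIRC5, which encodes the mitotic protein survivin, at -1.49, the protease gene HTRA2 at 0.29, the inner membrane fusion gene OPA1 at -0.22 and BIRC6 at -0.16.

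Of 20 other death receptor, ligand and adaptor genes, 7 rose and 6 fell (median 0.16). The adaptor gene TRAF1 was at 1.61, the linear ubiquitin ligase gene RBCK1 at 1.41, the TRAIL-binding decoy gene TNFRSF11B at -1.38 and the receptor gene TNFRSF25 at 1.10. Of 15 transcription factor genes, 8 rose and 3 fell (median 0.21), and the shares over all genes are again 25.8% and 25.7%. CEBPB rose from 46.0 to 162 CPM, ATF3 from 8.38 to 29.5 CPM and DDIT3, which encodes CHOP, from 11.1 to 27.4 CPM, while TP73 fell from 9.34 to 3.26 CPM.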

How the data were processed

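The authors deposited a file of unnormalized counts by gene for each library. HISAT2 2.2.1, HTSeq 2.0.2 and the build hg38 are named per the submitters' processing notes, which give no counting options, strand or annotation release. HTSeq summary rows were left out, of which reads outside genes were 6.32% to 7.98%. Tests used edgeR 4.0.16 under R 4.3.3 (TMM, default filter by group, quasi-likelihood F-test, Benjamini-Hochberg at 0.05) over all 6 libraries with a mean per group, leaving 3 residual and adding 13.8 prior degrees of freedom. Of 60651 rows, 15589 were tested. The script was tested on simulated data. Levels are TMM-scaled CPM, and exon lengths are unions of GENCODE 29 exons. The SE was derived from the F statistic. Floors cover counting error on the DMSO side only. All 35 members were reported, with every library's value for those past the test at 0.5 or more on the log2 scale in a dose, with counts for HRK, which the filter removed, and for other lists the 4 called genes with the largest change at 150 µg/ml, apart from a few results not reported here. Members and lists were chosen with earlier results of these data known. Alternatives were DESeq2 1.42.0 and its size factors, total counts, other filters, limma-voom (limma 3.58.1), 2-group fits, a replicate block, each library left out, an adjusted p of 0.01 and a minimum change of 0.5.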

Additional observations from a re-analysis of the deposited data

How the results depend on the processing

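No member called by the test in any of the 3 comparisons took the other sign under the alternatives run, and the sign changes given here are of members called under neither setting. The counts of members stayed within 1.5 times those reported under DESeq2 size factors, limma-voom, no filter, the filter of 5 CPM and fits of only the 2 groups compared. A minimum log2 fold change of 0.5 left 7 members higher and 4 lower at 75 µg/ml, 10 higher and 8 lower at 150 µg/ml, and 2 higher and 0 lower between the doses. For the step between doses, an adjusted p of 0.01 left 7 higher and 0 lower, and DESeq2 and total counts each left 1 lower. Leaving out 1 library gave 7 to 12 higher and 7 to 10 lower at 75 µg/ml, 15 to 18 higher and 9 to 10 lower at 150 µg/ml, and 6 to 12 higher and 0 to 3 lower for the step. The low of 7 higher at 75 µg/ml was without 75 µg/ml replicate 1. The fit then assumes that the lone library of a group varies like the other groups. Leaving out a library of either compared group also gave fewer calls over all genes, in both directions. Same-numbered libraries of different groups had deviations correlated at 0.00373 to 0.059, so the numbers are not shown to pair them. With the replicate number as a block, 12 rose and 10 fell at 75 µg/ml, 18 rose and 10 fell at 150 µg/ml (CASP1 added), and 12 rose and 3 fell for the step (TNFRSF10D added).

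Under total counts the log2 fold change took the other sign at 75 µg/ml for MCL1 (0.0582), BAX (0.0638) and FADD (0.0398), at 150 µg/ml for BIRC3 (0.1146) and FADD (0.0799), and for the step for CASP2 (0.0116) and FADD (0.0401). DIABLO at 75 µg/ml was at -0.0103 with DESeq2 size factors, -0.0087 with DESeq2 and -0.0023 with no filter. Over the libraries left out in turn, the value at 75 µg/ml ran from -0.1838 to 0.0649 for BAX, -0.4103 to 0.5989 for DIABLO and -0.1753 to 0.0033 for FADD, and at 150 µg/ml from -0.0755 to 0.1477 for CASP6. For the step it ran from -1.4613 to 0.3135 for BCL2A1, at 3 to 11 counts a library, -0.8101 to 0.1761 for BMF, -0.9971 to 0.2637 for CASP1 and -0.0907 to 0.0549 for FADD. The cause was not tested. Low counts limit what could be detected for BIK, BMF, CASP1 and BCL2A1.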
